A study of Mus musculus with 69 samples.

Results

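The proteasome subunit genes and their close relatives were taken as every row of the count table whose symbol begins with Psma, Psmb, Psmc, Psmd, Psme, Psmf or Psmg followed by a digit. The rule found 49 of the 16263 genes listed, and all 49 passed the filter on low counts, which kept 14061 genes. They comprise 31 subunits of the constitutive 26S proteasome, 3 inducible catalytic subunits, 5 alternative activator genes, 1 inhibitor, 7 assembly chaperones, the germ-cell alpha subunit Psma8, and Psmc3ip, which matches the letters of the rule but encodes a cofactor of meiotic recombination and no proteasome subunit. Adrm1 and Sem1, proteasome subunits without the Psm name, fall outside the rule and were read with the partner genes. Counts of subunits below therefore cover Psm-named genes only. On the GRCm38 annotation 10 of the 49 genes lie on chromosome 11, and these were compared with the other 39.

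The data came from J1 cells, a mouse embryonic stem cell (ESC) line of 129S4/SvJae background. WT cells carried unedited histone genes, and the mutants Mut18 and Mut43 carried H3.3K27R, an arginine in place of lysine 27 of the histone variant H3.3, introduced by CRISPR-Cas9 into both alleles of H3f3a and H3f3b. Each mutant line is 1 clone, so a difference between mutants and WT cannot be told apart from what distinguishes these clones from the parental culture. No line was given a drug or other treatment, and cells were kept on feeders that were removed over the last passages before harvest. Each line had 2 mRNA-seq libraries, described as biological replicates, and 2 ATAC-seq libraries, and p-values measure the spread between these few cultures.

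The proteasome is the large protease that degrades ubiquitin-tagged proteins. Its 20S core is a stack of rings of alpha and beta subunits, with the cutting sites on the beta subunits Psmb5, Psmb6 and Psmb7, and its 19S cap has a base, whose ATPases unfold the substrate, and a lid, whose Psmd14 removes the ubiquitin chain. Subunits are built into the complex in fixed proportions, and in many cells their genes are switched on together by the transcription factor Nfe2l1 when the protease falls short.

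The libraries held 14992756 to 15143998 counts each. Both edited genes were expressed in every library, H3f3a at 8436 to 10937 and H3f3b at 11655 to 13556 normalized counts, and the counts do not show the edited base. Normalized counts here are counts scaled by TMM factors to the mean effective library size. The 8 ESC markers examined were all expressed. By the edgeR test described below, at an adjusted p under 0.05, 6 of them were higher and 2 lower in the mutants. Of all tested genes, 23.5% were higher and 24.5% lower. The 2 lower markers were Pou5f1, with a log2 fold change of -0.27, and Utf1, at -0.19. The summed level of 8 feeder fibroblast genes was 6170 to 7445 normalized counts in WT and 3549 to 4879 in the mutants, and none of the 8 was at 0 in all libraries. In bulk RNA, fewer cells of a type and less RNA per cell cannot be told apart.

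Most proteasome genes were slightly higher in the mutants or did not differ detectably, and the larger rises were those of genes on chromosome 11. With edgeR's quasi-likelihood test of 4 mutant against 2 WT libraries, and a Benjamini-Hochberg adjusted p under 0.05 over all tested genes, 22 of the 49 genes were higher and 1, Psmb8, was lower. Among all tested genes 23.5% were higher and 24.5% lower, 48% in all. All 4 mutant libraries were above both WT libraries for 26 of the 49 genes and below both for 1, against 29.4% and 30.4% of all tested genes. The changes were small. Log2 fold changes ran from -0.57 to 0.50 with a median of 0.07, against -0.00 for all tested genes. In edgeR 0 of the 49 passed a change of over 2-fold, where 3.28% of all tested genes were over 2-fold higher and 5.65% over 2-fold lower. There were 23 of the 49 with an unadjusted p under 0.05, and DESeq2 also found 0 over 2-fold.

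**Figure D1:**
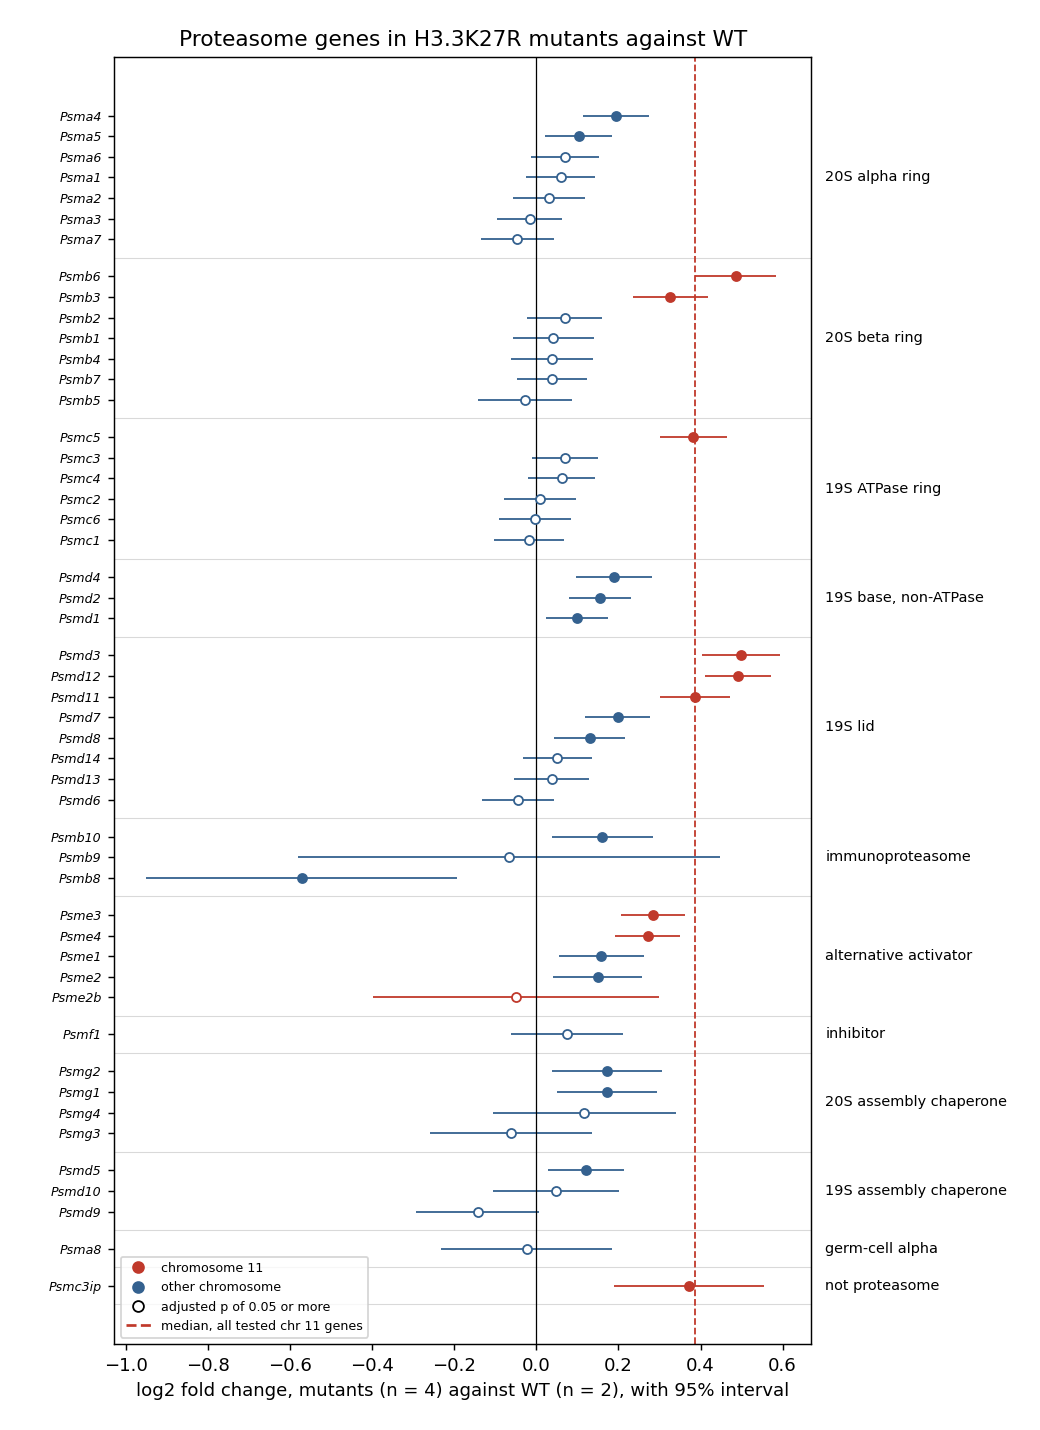
Log2 fold change of each of the 49 genes, mutants (n = 4) against WT (n = 2), grouped by place in the complex, with 95% confidence intervals; filled points have an adjusted p under 0.05 in edgeR, red points lie on chromosome 11, and the dashed line is the median of all 1182 tested genes of that chromosome. Apart from Psme2b, the chromosome 11 genes lie to the right of every gene of another chromosome.

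Of the 10 genes on chromosome 11, 9 were higher in the mutants, and for each of the 9 all 4 mutant libraries lay above both WT libraries. That chromosome as a whole behaved in the same direction, with 67% of its 1182 tested genes higher and 7.11% lower, and 70.6% with all mutant libraries above both WT libraries and 8.54% with all below. On the other autosomes 19.7% of 12241 tested genes were higher and 25.6% lower, and the shares without overlap were 25.9% above and 31.9% below. The median log2 fold change was 0.38 for the 10 genes, a median fold of 1.30, and 0.39 for all tested genes of chromosome 11. Of the 10 genes, 9 lay within the interquartile range of that chromosome, 0.17 to 0.55. The number of chromosome copies was not measured by these libraries, and its part in the result was not tested.

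Among the 39 genes on other chromosomes, 13 were higher and 1 was lower, with a median log2 fold change of 0.06 and a range of -0.57 to 0.20. The median of all tested genes on other autosomes was -0.02. Of these 39 genes, 31 lay inside the interquartile range of the other autosomes, -0.26 to 0.16, 7 above it and 1 below. With library totals in place of TMM factors, only Psmd7, Psma4, Psmd2 and Psmd4 of the 13 stayed higher and the median became 0.02, while the 9 on chromosome 11 stayed higher. The difference between the medians of both groups of genes was 0.32 under TMM factors, library totals and TMM factors drawn only from genes off chromosome 11. Scaling factors shift all genes nearly alike, so they could hardly move this difference, and its constancy is no separate check.

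The gap also held within each mutant library. Taking the 31 subunits of the 26S particle alone and each library relative to the WT mean, the lowest of the 6 subunits on chromosome 11 stood at a log2 ratio of 0.39 in Mut18 replicate 1, 0.31 in Mut18 replicate 2, 0.27 in Mut43 replicate 1 and 0.33 in Mut43 replicate 2. The highest of the 25 subunits on other chromosomes stood at 0.26, 0.21, 0.20 and 0.24 in those libraries. In every mutant library, therefore, the ranges of both groups of subunits did not overlap. The WT libraries are no contrast here, because each ratio is taken to their own mean and both groups are centred near 0 in them.

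**Figure D2:**
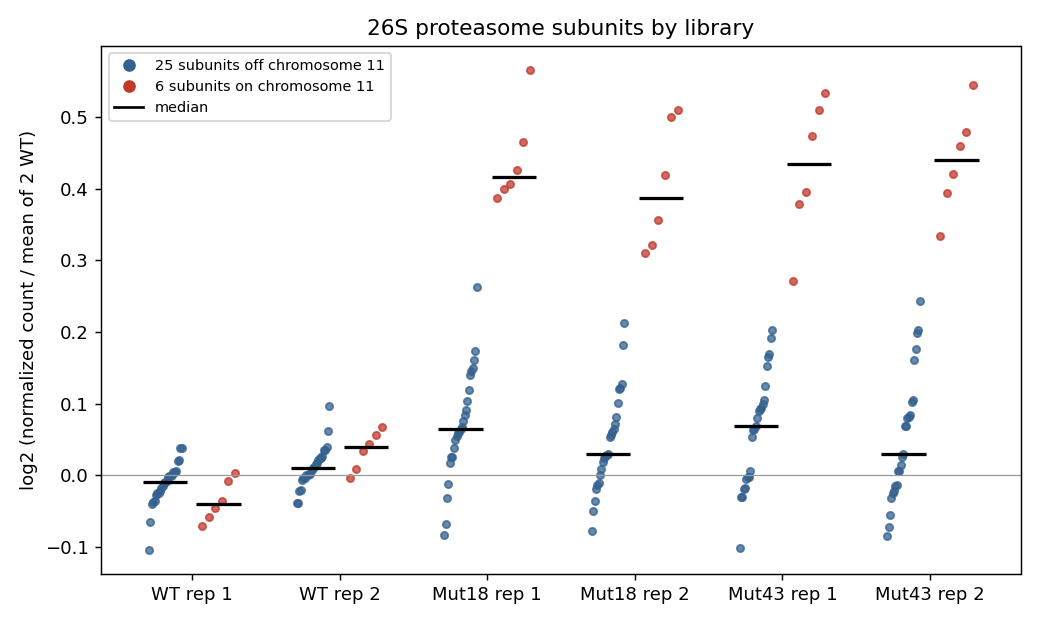
Log2 ratio of each 26S subunit to its WT mean in each of the 6 libraries (2 per line), with the 6 subunits on chromosome 11 in red, the 25 on other chromosomes in blue and medians as bars. The red medians are 0.39 to 0.44 in the mutant libraries and the blue medians 0.03 to 0.07.

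The subunit genes on chromosome 11 accordingly supplied a larger share of the subunit mRNA counts. Their share of all counts on the 31 subunits was 19.7% and 20.2% in the WT libraries, 24.4% and 24.1% in those of Mut18, and 24.2% and 24.4% in those of Mut43. The 95% Wilson intervals, which cover counting error only, reached 20.5% at most in WT and began at 23.9% in the mutants, so the groups did not overlap. All 49 genes together took 0.832% and 0.842% of the counts in WT and 0.907% to 0.922% in the mutants.

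**Figure D3:**
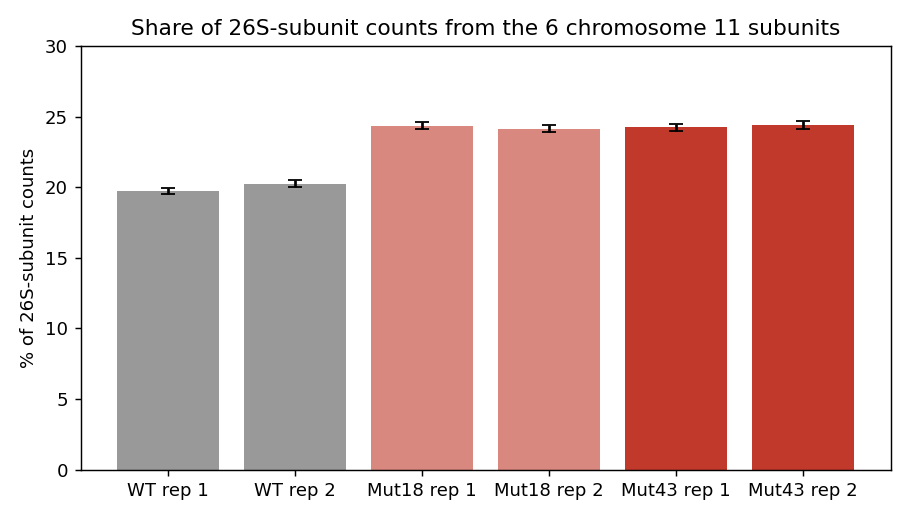
Share of all 26S-subunit counts that fell on the 6 subunits of chromosome 11 (Psmb3, Psmb6, Psmc5, Psmd3, Psmd11 and Psmd12) in each library, with 95% Wilson intervals. The WT libraries are at 19.7% and 20.2%, and the 4 mutant libraries between 24.1% and 24.4%.

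The promoters of the 4 chromosome 11 subunits below are shown because their genes rose together, and because they differ in the motifs they hold. Each line gives the 250 bases before the annotated start, plus strand, of RefSeq on GRCm38.p6. Psmb6 is at chr11:70525107-70525356, Psmd12 at chr11:107479278-107479527, Psmc5 at chr11:106255935-106256184 and Psmd11 at chr11:80428365-80428614. Capitals mark the motifs searched, described after the sequences.
Psmb6: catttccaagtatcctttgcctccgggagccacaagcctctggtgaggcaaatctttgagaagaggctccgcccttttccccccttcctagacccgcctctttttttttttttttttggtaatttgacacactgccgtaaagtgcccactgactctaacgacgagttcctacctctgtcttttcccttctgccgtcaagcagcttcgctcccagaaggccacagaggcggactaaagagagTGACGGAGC
Psmd12: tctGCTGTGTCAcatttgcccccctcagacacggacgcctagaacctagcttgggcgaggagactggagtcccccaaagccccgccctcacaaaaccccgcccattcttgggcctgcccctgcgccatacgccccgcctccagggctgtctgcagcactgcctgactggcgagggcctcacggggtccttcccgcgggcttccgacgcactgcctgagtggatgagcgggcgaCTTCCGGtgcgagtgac
Psmc5: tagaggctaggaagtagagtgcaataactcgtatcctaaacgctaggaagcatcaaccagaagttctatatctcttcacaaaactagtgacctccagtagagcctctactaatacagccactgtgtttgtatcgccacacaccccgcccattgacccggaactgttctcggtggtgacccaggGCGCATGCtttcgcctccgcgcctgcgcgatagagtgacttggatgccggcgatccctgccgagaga
Psmd11: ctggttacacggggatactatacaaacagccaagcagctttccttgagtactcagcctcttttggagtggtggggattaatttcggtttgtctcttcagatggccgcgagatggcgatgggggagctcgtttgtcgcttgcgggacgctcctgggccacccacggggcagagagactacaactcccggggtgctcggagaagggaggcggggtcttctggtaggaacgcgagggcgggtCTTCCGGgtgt

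In Psmb6 the capitals are TGACNNNGC, the core of the antioxidant response element read by Nfe2l1 and Nfe2l2, directly before the start. Psmd12 holds that core on the opposite strand far upstream, and the ETS-type motif CCGGAAG on the opposite strand near the start. Psmc5 holds part of the NRF1 motif, GCATGCGC, on the opposite strand, and Psmd11 holds CCGGAAG on the opposite strand. Motifs were searched on both strands in 300-base windows, 250 before and 50 after the start. The RefSeq promoter table had 44 such windows for 41 of the 49 genes and 32851 in all, and a match is a description of letters, not a bound site.

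Of the 4 motifs, the ETS-type motif was the one whose share stood furthest from that of all promoters. It was in 36.4% of the 44 windows, against 8.86% of all 32851, and in 15 genes, Psmd11, Psmd12, Psme3, Psme4 and Psmc3ip of chromosome 11 among them. The antioxidant response core was in 13.6% of the windows against 12.4% of all, at Psmb5, Psmb6, Psmc6, Psmd9, Psmd12 and Psme4. CCAAT was in 31.8% against 37.4%, and GCATGCGC in 6.82% against 2.71%. The differences between these shares were not tested.

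In the beta ring of the 20S core, 2 of 7 genes were higher, against 23.5% of all tested genes. Both lie on chromosome 11, where 67% of tested genes were higher. Psmb6 (chromosome 11, 70525367 to 70527858, plus strand), which carries the caspase-like site, had normalized counts of 3056 and 3365 in the WT libraries, 4753 and 4293 in those of Mut18 and 4460 and 4476 in those of Mut43. Every mutant library was above both WT libraries by more than these differed from each other. Its log2 fold change was 0.49 (SE 0.048, edgeR adjusted p = 4.85e-08). Psmb3 (97703399 to 97713500, plus strand), a structural subunit, had 2977 and 3169 in the WT libraries, 4017 and 3809 in those of Mut18 and 3710 and 3875 in those of Mut43. The groups did not overlap, with a log2 fold change of 0.33 (SE 0.043, edgeR adjusted p = 3.04e-06).

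The other catalytic subunits of the ring did not pass the test. Psmb5, with the chymotrypsin-like site, had normalized counts of 959.8 and 1048 in the WT libraries, 1046 and 970.0 in those of Mut18 and 935.2 and 988.4 in those of Mut43, and its groups overlapped. Its log2 fold change was -0.03 (95% interval -0.14 to 0.09, edgeR adjusted p = 0.711). Psmb7, with the trypsin-like site, had 3843 and 3848 in the WT libraries, 3950 and 3924 in those of Mut18 and 3796 and 4128 in those of Mut43, and its groups overlapped too. The log2 fold change was 0.04 (95% interval -0.05 to 0.12, edgeR adjusted p = 0.462). The intervals of both lie below that of Psmb6, 0.39 to 0.58. The 5 ring genes off chromosome 11, Psmb1 and Psmb2 and Psmb4 among them, ranged from -0.03 to 0.07.

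In the alpha ring, whose 7 genes all lie off chromosome 11, Psma4 and Psma5 were higher, Psma5 not with library totals. On the other autosomes 19.7% of tested genes were higher. Psma4 had normalized counts of 3704 and 3604 in the WT libraries, 4120 and 4234 in those of Mut18 and 4174 and 4194 in those of Mut43. The libraries of the groups did not overlap, and the log2 fold change was 0.19 (SE 0.038, edgeR adjusted p = 0.000298). Its exons overlap those of a gene on the opposite strand by 114 bases, and no source used here states that reads were counted by strand. Psma5 had a log2 fold change of 0.10 (edgeR adjusted p = 0.0343), and 0.064 with library totals. The lowest of the ring was Psma7, with 2663 and 2800 in WT and 2577 to 2749 in the mutants, a log2 fold change of -0.05 that did not pass the test (edgeR adjusted p = 0.391).

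Among the 6 ATPases of the 19S base, Psmc5 alone passed the test, and Psmc5 alone lies on chromosome 11. The share of tested genes higher was 67% on that chromosome and 19.7% on other autosomes. Psmc5 (106256154 to 106263120, plus strand) had normalized counts of 3651 and 3831 in the WT libraries, 4937 and 4787 in those of Mut18 and 4863 and 4916 in those of Mut43. Mutant libraries were all above WT libraries, with a log2 fold change of 0.38 (SE 0.039, edgeR adjusted p = 9.63e-08). Its partners in the ring, Psmc1, Psmc2, Psmc3, Psmc4 and Psmc6, ranged from -0.02 to 0.07 on the log2 scale. The interval of Psmc5, 0.30 to 0.46, lay above those of its 5 partners, which reached 0.15 at most, at Psmc3.

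The 3 Psm-named non-ATPase genes of the base, none on chromosome 11, were higher with TMM factors, but the call on Psmd1 was lost with library totals. Of all tested genes on other autosomes, 19.7% were higher. Psmd2, a scaffold subunit, had normalized counts of 6898 and 6857 in the WT libraries, 7632 and 7512 in those of Mut18 and 7711 and 7773 in those of Mut43, and a log2 fold change of 0.15 (SE 0.036, edgeR adjusted p = 0.00140). Psmd4, a ubiquitin receptor, had 2538 and 2634 in the WT libraries, 3103 and 2814 in those of Mut18 and 2907 and 2975 in those of Mut43, and a log2 fold change of 0.19 (SE 0.044, edgeR adjusted p = 0.00140). For both genes all mutant libraries were above both WT libraries. Psmd1, the other scaffold, had a log2 fold change of 0.10 (edgeR adjusted p = 0.0300), 0.059 with library totals, and shares exonic bases with 2 other annotated genes.

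In the lid, 5 of the 8 Psm-named genes were higher, against 23.5% of all tested genes. Of the lid genes, 3 lie on chromosome 11, where 67% of tested genes were higher. Of the 5 lid genes off it, 2 were higher, against 19.7% of tested genes on other autosomes. The 3 largest changes were those of the chromosome 11 genes Psmd3, Psmd12 and Psmd11, all structural subunits. Psmd3 (98682554 to 98695979, plus strand) had normalized counts of 2751 and 2979 in the WT libraries, 3849 and 4080 in those of Mut18 and 4080 and 4180 in those of Mut43. The groups were apart, and the log2 fold change of 0.50 (SE 0.045, edgeR adjusted p = 1.72e-08) was the largest of the 49. Psmd12 (107479484 to 107504362, plus strand) had 4630 and 4609 in the WT libraries, 6379 and 6533 in those of Mut18 and 6689 and 6357 in those of Mut43, and its log2 fold change was 0.49 (SE 0.039, edgeR adjusted p = 2.30e-09). For both genes the mutant libraries were 1.40 to 1.41 times the WT mean on average and did not overlap WT. Psmd11 (80428615 to 80473248, plus strand) had 3194 and 3230 in the WT libraries, 4257 and 4016 in those of Mut18 and 4227 and 4301 in those of Mut43. Its groups were also apart, with a log2 fold change of 0.39 (SE 0.041, edgeR adjusted p = 1.47e-07).

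The lid genes of other chromosomes changed less. Psmd7, the inactive partner of Psmd14, had normalized counts of 5030 and 5046 in the WT libraries, 5632 and 5717 in those of Mut18 and 5801 and 5966 in those of Mut43. It was above WT in all 4 mutant libraries, with a log2 fold change of 0.20 (SE 0.038, edgeR adjusted p = 0.000242), the largest of the 39 genes off chromosome 11. Psmd8 had a log2 fold change of 0.13 (edgeR adjusted p = 0.0131), and 0.090 with library totals, which did not pass. Psmd14, the deubiquitinase, did not pass, at 0.05 (95% interval -0.03 to 0.14), nor did Psmd13 at 0.04. Psmd6 had 2336 and 2268 in WT and 2182 to 2298 in the mutants, groups that overlapped, and a log2 fold change of -0.04 (edgeR adjusted p = 0.394).

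Levels were compared between genes as CPM per kb of annotated exon, and on that scale the 31 subunits of the 26S particle spanned 33.4, for Psmd11, to 178 for Psmc5 in WT. In the beta ring Psmb6 stood at 108 and 119 CPM per kb in WT, below Psmb2 at 123 and 128. In the mutants Psmb6 stood at 152 to 169, above Psmb2 at 128 to 138. The order of these neighbours thus turned between WT and mutants, with no overlap in either. It depends on the length used, since per kb of the longest transcript Psmb6 already ranked above Psmb2 in WT, and the median WT level of the 31 subunits was 74.1 CPM per kb of exon and 123 per kb of longest transcript.

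Of the 5 genes of activators that replace the 19S cap, 4 were higher, 2 of the 3 on chromosome 11 and both on chromosome 14. Among all tested genes, 67% were higher on chromosome 11 and 19.7% on other autosomes. Psme3, the nuclear activator PA28 gamma (chromosome 11, 101316213 to 101323537, plus strand), had normalized counts of 5158 and 5385 in the WT libraries, 6437 and 6417 in those of Mut18 and 6306 and 6518 in those of Mut43. The log2 fold change was 0.28 (SE 0.038, edgeR adjusted p = 3.09e-06). Psme4, which encodes PA200 (30771726 to 30880361, plus strand), had 6973 and 6680 in the WT libraries, 8110 and 8519 in those of Mut18 and 8142 and 8182 in those of Mut43, and a log2 fold change of 0.27 (SE 0.038, edgeR adjusted p = 6.32e-06). In both, all 4 mutant libraries were above WT.

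The gene that did not pass was Psme2b on chromosome 11 (48945354 to 48946190, minus strand), an intronless copy of Psme2. It had normalized counts of 65.4 and 70.6 in the WT libraries, 69.1 and 63.7 in those of Mut18 and 55.0 and 75.1 in those of Mut43, and its groups overlapped. Its log2 fold change was -0.05, with an interval of -0.40 to 0.30 (edgeR adjusted p = 0.831) that holds the changes of Psme3 and Psme4 but none of those of the 6 subunits of the 26S particle on the chromosome. Reads may be shared between Psme2b and Psme2 on chromosome 14, so its value is uncertain. No ATAC-seq peak lay near its start in any library.

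Psmc3ip (101091823 to 101095436, minus strand) had normalized counts of 291.9 and 298.9 in the WT libraries, 415.5 and 404.6 in those of Mut18 and 373.5 and 334.9 in those of Mut43. It is no proteasome gene, yet all mutant libraries were above WT, with a log2 fold change of 0.37 (SE 0.088, edgeR adjusted p = 0.00155). Its exons overlap those of Mlx on the opposite strand by 385 bases.

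The genes that interferon induces did not move as a group. Psmb8, the inducible counterpart of Psmb5, had normalized counts of 61.5 and 88.2 in the WT libraries, 56.1 and 49.6 in those of Mut18 and 51.9 and 43.6 in those of Mut43. All mutant libraries were below both WT libraries, with a log2 fold change of -0.57 (SE 0.182, edgeR adjusted p = 0.0133). The call rests on WT replicate 2, without which the log2 fold change was -0.28 (adjusted p = 0.349), and DESeq2 gave an adjusted p of 0.0577. Over all 15 alternative settings the adjusted p of Psmb8 ran from 0.00273 to 0.349. Psmb8 also overlaps an antisense gene by 498 exonic bases.

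Psmb9, the counterpart of Psmb6, had normalized counts of 30.3 and 27.4 in the WT libraries, 24.0 and 25.3 in those of Mut18 and 35.6 and 25.4 in those of Mut43, groups that overlapped. Its log2 fold change was -0.07 (95% interval -0.58 to 0.45, edgeR adjusted p = 0.846). That wide interval leaves both a rise and a fall possible. Psmb10, the counterpart of Psmb7, had 704.0 and 749.8 in the WT libraries, 860.1 and 776.8 in those of Mut18 and 788.7 and 825.0 in those of Mut43. It was higher in every mutant library, with a log2 fold change of 0.16 (SE 0.059, edgeR adjusted p = 0.0302), a call lost in 6 of 15 alternative settings, whose adjusted p ran from 0.0136 to 0.226.

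Per kb of exon Psmb8 stood at 1.70% and 2.24% of the level of Psmb5 in WT and at 1.17% to 1.48% in the mutants. Psmb9 stood at 0.507% and 0.417% of Psmb6 in WT and 0.259% to 0.408% in the mutants. Psmb10 stood at 36.8% and 39.1% of Psmb7 in WT and 39.7% to 43.7% in the mutants. Psmb8 and Psmb9 were thus at the bottom of the family in all 6 libraries, and Psmb10 was not.

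**Figure D4:**
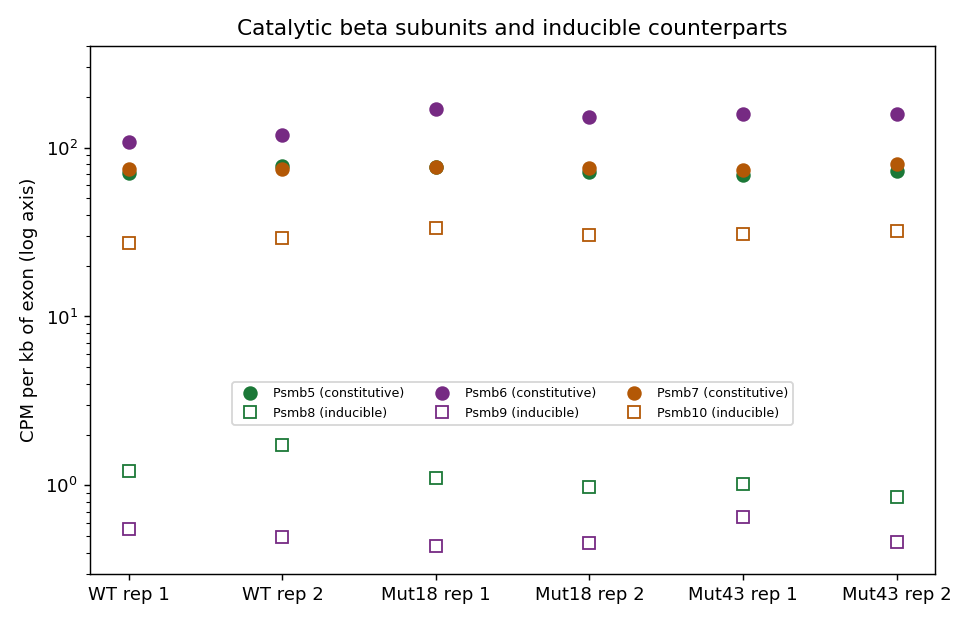
Level of the 3 constitutive catalytic subunits (filled circles) and their inducible counterparts of the same colour (open squares) in each library, in CPM per kb of annotated exon on a log axis. Psmb8 and Psmb9 lie below 2 CPM per kb while the constitutive subunits lie near or above 70.

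Psme1 and Psme2, the PA28 alpha and beta activator genes that interferon also induces, were both slightly higher. Psme1 had normalized counts of 1027 and 997.8 in the WT libraries, 1161 and 1068 in those of Mut18 and 1123 and 1167 in those of Mut43, and a log2 fold change of 0.16 (SE 0.050, edgeR adjusted p = 0.0127). Psme2 had 948.1 and 1041 in the WT libraries, 1128 and 1070 in those of Mut18 and 1079 and 1134 in those of Mut43, and a log2 fold change of 0.15 (SE 0.052, edgeR adjusted p = 0.0219). All mutant libraries were above WT for both, but without WT replicate 1 the log2 fold change of Psme2 was 0.09 (adjusted p = 0.326), and without WT replicate 2 the adjusted p of Psme1 was 0.0904. With library totals both calls were lost. Over the 15 alternatives the adjusted p ran from 0.00490 to 0.0904 for Psme1 and from 0.00808 to 0.326 for Psme2.

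Beside these genes, 11 of 12 genes of an interferon and antigen presentation list were in the table, and 2 (18.2%) were higher and 6 (54.5%) lower in the mutants, against 23.5% and 24.5% of all tested genes. Among the lower genes were B2m, Tap1, Tap2, H2-D1 and Nlrc5, and the higher ones were Irf1, on chromosome 11, and Isg15. The 11 genes summed to 3336 normalized counts in WT replicate 1, 3066 in WT replicate 2 and 2824 to 2935 in the mutants. The feeder genes named above were lower in the mutants in 6 of 7 that could be tested. They summed to 7445 in WT replicate 1 and 6170 in replicate 2, whereas Psmb8 was higher in replicate 2, and the part of either list in the change of Psmb8 was not tested.

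The chaperones that assemble the complex showed no common direction. Of the 20S chaperones, Psmg1 and Psmg2 were each higher by 0.17 on the log2 scale (edgeR adjusted p = 0.0197 and 0.0313), while Psmg4 at 0.12 did not pass. Psmg3 had 197.2 and 215.6 normalized counts in WT and 184.7 to 212.4 in the mutants, with a log2 fold change of -0.06 (edgeR adjusted p = 0.613). Of the chaperones of the ATPase ring, Psmd5 was higher by 0.12 (edgeR adjusted p = 0.0313) and Psmd10, on chromosome X, had a log2 fold change of 0.05 (adjusted p = 0.611). Psmd9 had 456.9 and 517.5 in the WT libraries, 431.5 and 462.2 in those of Mut18 and 431.5 and 439.4 in those of Mut43, overlapping groups with a log2 fold change of -0.14 (SE 0.072, edgeR adjusted p = 0.110). With library totals Psmd9 was called lower, at -0.18, and it shares 1849 exonic bases with a noncoding gene on the opposite strand. The calls on Psmg1, Psmg2 and Psmd5 were lost with library totals, at 0.13, 0.13 and 0.081. Psmf1, the inhibitor PI31, had a log2 fold change of 0.08 and Psma8 one of -0.02, and neither passed the test.

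Each clone was also set against the same 2 WT libraries. In Mut18 17 of the 49 genes were higher and 0 lower, where 20.3% and 21% of all tested genes were called, 22 of the 49 had an unadjusted p under 0.05, and DESeq2 called 13 in either direction. In Mut43 18 were higher and 1 lower, where 22.9% and 23.9% of all tested genes were called, 46.8% in all, against 41.3% in Mut18. The 9 chromosome 11 genes were higher in each clone, with medians over the 10 genes of 0.37 in Mut18 and 0.35 in Mut43. Tested directly against each other in edgeR, the clones differed in 0 of the 49 genes, 1 had an unadjusted p under 0.05, DESeq2 called 0, and 0.327% of all tested genes were called, 0.263% higher and 0.064% lower in Mut18.

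The gene with the lowest p between the clones was Psmc3ip, higher in Mut18 by 0.21 on the log2 scale (SE 0.086, edgeR adjusted p = 0.457). The next was Psmd3, lower in Mut18 by 0.06 with an interval of -0.16 to 0.04 (edgeR adjusted p = 0.812). Neither passed the test.

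Genes that work with the proteasome but do not bear the Psm name were read from a list of 31, of which 30 were in the table. In the mutants 8 (26.7%) were higher and 4 (13.3%) lower, with a median log2 fold change of 0.01, where 23.5% of all tested genes were higher and 24.5% lower. The 4 partner genes on chromosome 11 were all among the higher ones, on a chromosome with 67% of its tested genes higher. Nfe2l1, the transcription factor of subunit genes, had normalized counts of 2596 and 2528 in the WT libraries, 3556 and 3568 in those of Mut18 and 3724 and 3779 in those of Mut43. It was above WT in every mutant library, with a log2 fold change of 0.51 (SE 0.042, edgeR adjusted p = 4.26e-09). Rps27a, a ubiquitin precursor fused to a ribosomal protein, had 14671 and 15782 in WT and 19895 to 21071 in the mutants, a log2 fold change of 0.41 (edgeR adjusted p = 2.84e-08). Nploc4, a cofactor of the p97 unfoldase, had 1807 and 1808 in WT and 2131 to 2221 in the mutants, a log2 fold change of 0.26 (edgeR adjusted p = 2.93e-05), and the ubiquitin gene Ubb was higher by 0.15 (edgeR adjusted p = 0.0148).

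The lower partner genes lie on other chromosomes. Ubqln2, a shuttle receptor encoded on chromosome X, had 1474 and 1591 normalized counts in WT and 982.3 to 1023 in the mutants, a log2 fold change of -0.62 (edgeR adjusted p = 1.05e-09). Ecpas, listed under its older symbol AI314180 and known as a proteasome adaptor, had 1305 and 1250 in WT and 918.4 to 1007 in the mutants, a log2 fold change of -0.40 (edgeR adjusted p = 1.59e-06). Zfand5, a proteasome-binding zinc finger protein, had 1347 and 1285 in WT and 961.0 to 1047 in the mutants, a log2 fold change of -0.40 (edgeR adjusted p = 9.28e-07). In these 3 genes the mutant libraries did not overlap WT.

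ATAC-seq, which marks accessible DNA, showed a deposited peak within 500 bp of an annotated start in all 6 libraries for 47 of the 49 genes, or 95.9%, against 85.9% of the 13938 tested genes with a placed start. The exceptions were Psme2b, with a peak in none, and Psmb7, without one in Mut18 replicate 1 and Mut43 replicate 2. Psmb7 had a fold enrichment of 5.89 and 5.48 in WT, 6.28 in Mut18 replicate 2 and 5.54 in Mut43 replicate 1, all at the low end of the family, and its mRNA is given above. The peak lists hold no read numbers, so fold enrichment was not compared between libraries gene by gene, and below only ratios formed within a library are set side by side, with no test.

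Within a library, the strongest peaks of the 6 chromosome 11 subunits had lower fold enrichment over background than those of the other subunits. The ratio of their medians was 0.741 and 0.772 in the WT libraries, 0.707 and 0.619 in those of Mut18, and 0.703 and 0.643 in those of Mut43. All 4 mutant ratios were below both WT ratios, and the same held for the chromosome as a whole. The median over all its tested genes with a peak, divided by that over all tested genes with a peak, was 0.906 and 0.937 in the WT libraries, 0.885 and 0.878 in those of Mut18, and 0.876 and 0.865 in those of Mut43. The peaks of the 4 promoters printed above ran from 6.07 to 7.25 for Psmb6, 7.15 to 8.64 for Psmd12, 6.48 to 8.06 for Psmc5 and 6.47 to 7.83 for Psmd11 over the 6 libraries. These ranges describe the level of each peak only, and WT and mutant libraries were not compared by them.

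**Figure D5:**
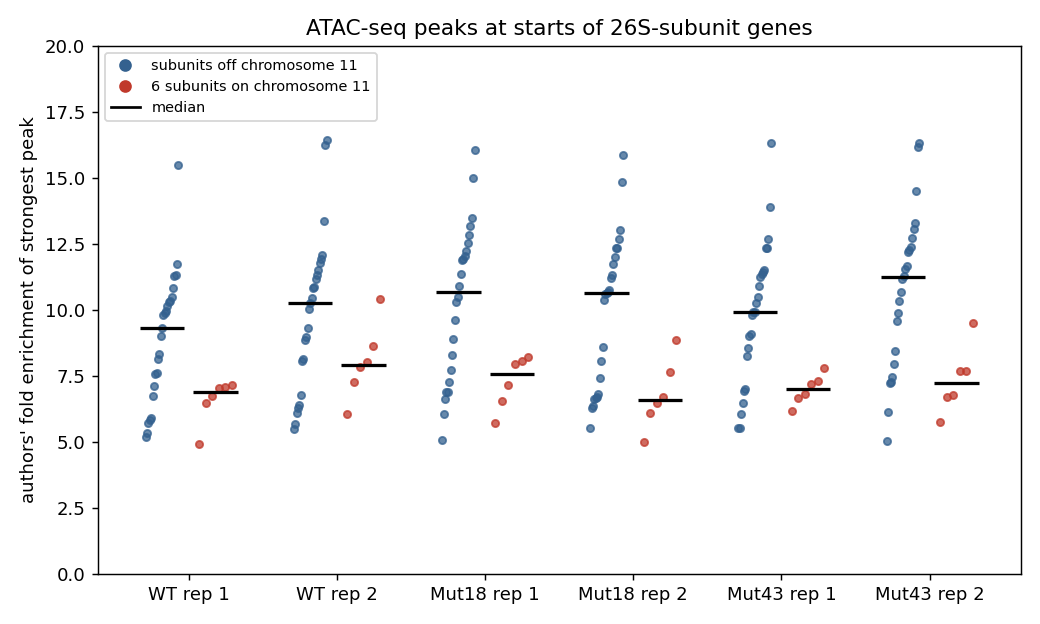
The authors' fold enrichment of the strongest ATAC-seq peak within 500 bp of a start, for each 26S subunit gene with a peak, in each library, with medians as bars. The medians of the 6 chromosome 11 subunits (red, 6.58 to 7.92) lie below those of the other subunits (blue, 9.30 to 11.2) in all 6 libraries.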

How the data were processed

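The mRNA-seq values were whole-number read counts per gene, which the authors deposited without normalization for 6 libraries. Per the labels' processing notes, STAR, Bowtie2 2.3.4.2, SAMtools, DESeq2 and deepTools 3.3.0 were used with mm10. The counting program and strand setting are not given in the sources used here. For ATAC-seq the authors deposited MACS2 peaks library by library, carrying a fold enrichment over local background (signal) and a significance as -log10 q, and no other ATAC-seq values were used.

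Groups were taken from the sample titles. Symbols were matched to GENCODE M21 of GRCm38, 15618 directly, 478 by an older symbol, and 167 not at all. Differential expression was computed with edgeR 4.0.16 in R 4.3.3 (filterByExpr, minimum count 10 and minimum total 15, TMM, quasi-likelihood F-test, Benjamini-Hochberg adjustment over 14061 genes), 2 WT against 4 mutant libraries without covariates, and in a fit of 3 groups for the clones. The procedure was tested on simulated data. Intervals of 95% use the total degrees of freedom of the quasi-likelihood fit. These are the residual ones plus prior ones estimated over all genes, so the intervals are narrower than residual degrees of freedom alone would give. Replicates of a line differed by more than counting error (chi-square per gene 1.71 to 3.03). Python 3.11.15 with pandas 2.3.3 placed peaks within 500 bp of annotated starts and searched promoters.

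The members, the gene lists, the motifs and the genes given in full were chosen with earlier results of these data known. Values per library were given for all members on chromosome 11, the interferon-inducible members and their counterparts, the 5 other members with the lowest p in each direction, the 2 members with the lowest p between clones, and the 3 partner genes with the lowest p in each direction. Any member could be named, and Ubb and the interferon genes were named after their values were seen. Some genes of the lists are not reported here. Alternatives were DESeq2 1.42.0, other normalizations, filters, thresholds, a replicate block and each library left out.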

Additional observations from a re-analysis of the deposited data

Results flagged for a closer look

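Each gene's 4 mutant libraries were searched for 1 that stood apart from the other 3 by Dixon's 95% criterion (the gap to the nearest other library over the whole range), which chance meets in about 1 of 20 groups. Of the 49 genes, 1 met it. Psmb9 had 35.6 normalized counts in Mut43 replicate 1, against 24.0 to 25.4 in the other 3 mutant libraries, a gap of 0.884 of the range, at counts among the lowest of the family. The WT libraries, with 30.3 and 27.4, lay between these values.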

How the results depend on the processing

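The 9 chromosome 11 genes stayed higher in the mutants under every alternative run, and the difference between the chromosome 11 and other medians stayed at 0.30 to 0.32. Other scaling factors could hardly move that difference, since they shift all genes nearly alike. The level of the other 39 genes moved with the scale: their median, 0.06, was 0.041 with upper-quartile factors, 0.019 with library totals and 0.083 with TMM factors from genes off chromosome 11. With library totals the chromosome 11 median was 0.34, 13 genes were higher and 2 lower. At an adjusted p under 0.01, 13 were higher and 0 lower, and DESeq2 found 0 lower. When single libraries were dropped, 15 to 20 genes were higher and 0 to 2 lower (2 without WT replicate 1, 0 without WT replicate 2), the other median was 0.051 to 0.086 (the highest without WT replicate 2), and the chromosome 11 median 0.35 to 0.40. Genes near 0 changed sign: Psmb7 was at -0.0011 with library totals, and with single libraries dropped Psmb9 ranged from -0.21 to 0.0090, Psmb5 from -0.086 to 0.044, Psme2b from -0.12 to 0.033 and Psmg3 from -0.12 to 0.010. With library totals the calls on Psma5, Psmd1, Psmd5, Psmd8, Psmg1, Psmg2, Psmb10, Psme1 and Psme2 were lost, and Psmd9 was called lower. The call on Psmb8 was lost under DESeq2 and without WT replicate 2. Of 31 named genes, 21 kept both the same call and the same sign of change in all alternatives. Psmb5, Psmb7, Psmb9, Psme2b and Psmg3 are outside that number for a change of sign only, and passed the test in no alternative. The median level per kb rose from 74.1 to 123 with longest-transcript lengths, because these are shorter. The numbers of genes different in each clone kept within 1.5 times, and the 47 genes with ATAC-seq peaks were 47 under every alternative. Over all tested genes, same-numbered replicates did not deviate together (correlations -0.02, 0.03 and -0.01), and the main fit did not pair them. Such correlations cannot exclude a batch that touches only part of the genes. With a replicate block 21 genes were higher and 1 lower, and 15 and 19 differed in Mut18 and Mut43. Except where stated, the cause of these shifts was not tested. With 2 WT libraries, changes under about 0.1 on the log2 scale were mostly not detectable, and Psmb8, Psmb9 and Psme2b rest on under 100 counts per library.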
